A study of Mus musculus with 12 samples.

Results

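The data described here are 6 of the 12 RNA-seq libraries of a mouse study of Runx1 in neutrophils, those labelled Control: 3 treated with 100 ng/mL lipopolysaccharide (LPS) and 3 with vehicle, each for 2 h. Membership was taken from the genotype and treatment in the sample titles. The cells were bone marrow neutrophils of C57BL/6 mice, sorted as CD11b+, Siglec F- and Ly6G+ and negative for the macrophage antigen encoded by Adgre1, then incubated in Hanks buffer with HEPES and FBS with or without LPS. The other 6 libraries are from Runx1KO neutrophils under the same treatments and entered the filter on low counts, the shared estimate of the spread and 1 test of the difference between genotypes. The submitters' design text adds that Control material included pooled LKS- marrow cells of a Runx1f/f mouse and a Runx1f/- mouse, the latter with a germline loss of 1 Runx1 allele, whereas the sample labels name sorted neutrophils. Control is thus not described as plain wild type, and the labels give neither the animal behind each library nor its age. The p-values below therefore measure the spread between these libraries, and how much of it is technical and how much lies between animals is not known.

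LPS, a glycolipid of the outer membrane of Gram-negative bacteria, is carried by LBP and CD14 to a receptor of TLR4 and MD-2. The adaptors MyD88 and TRIF then activate the IkB kinases and the MAP kinases. IkB proteins are degraded, NF-kB dimers enter the nucleus, and genes for cytokines, chemokines and for the pathway's own inhibitors are transcribed. In neutrophils, the short-lived first responders of the blood, this program accompanies adhesion, degranulation and delayed apoptosis.

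Sequencing depth was similar in the 6 libraries, from 19023610 to 26225169 counts assigned to genes, with 0.293% to 0.452% of counts on mitochondrial genes. Libraries carry the numbers 1 to 3 within each treatment, and values below are given in the order 1, 2, 3. Both libraries numbered 2 had 0 counts of Xist and 6218 and 6559 counts of Y-linked genes, whereas the 4 others had 900 to 1391 counts of Xist and 0 to 5 of Y-linked genes. By these counts number 2 was male and the 4 others female, so sex and library number 2 cannot be told apart. A vehicle and an LPS library of the same number also deviated together from their group means, with correlations across genes of 0.667, 0.659 and 0.394 for numbers 1, 2 and 3. Same-numbered libraries were therefore treated as pairs, and the shift of a pair is the log2 CPM (counts scaled by TMM library size, prior count 2) of the LPS library minus that of its vehicle partner. In root-mean-square log2 distance over all tested genes, pairs 1 and 2 lay at 0.444 and 0.501 and pair 3 at 0.894. LPS library 3 lay nearer to LPS library 2 (0.799) and vehicle library 2 (0.839) than to its partner. Vehicle library 3 lay nearer to vehicle library 1 (0.883). By this distance the libraries numbered 3 thus did not stand out as a pair. Their correlation of 0.394 is not separate evidence. Deviations from a mean of 3 libraries cancel out, so those of number 3 follow from those of numbers 1 and 2. The pairing of number 3 thus rests on the label number and on the pairing of numbers 1 and 2.

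The neutrophil label was checked against granule genes, which were abundant in all 6 libraries. Ngp, which encodes a secondary granule protein, lay between 35275 and 42368 CPM in the 6 libraries, and S100a9, a calprotectin subunit, between 42638 and 55298 CPM. Ly6g, the gene of the sorting antigen, lay at 418, 418 and 381 CPM with vehicle and at 471, 395 and 400 CPM with LPS. The summed CPM of 10 detected monocyte and macrophage markers was 1461 to 1769 with vehicle and 1640 to 2031 with LPS, most of it Ly6c2. Adgre1 itself stood at 15.5, 74.9 and 16.4 CPM with vehicle and at 16.4, 122 and 207 CPM with LPS, so the gene of an antigen used for exclusion moved with the response of pair 3, and Csf1r, a monocyte receptor, did so too, at 85.4, 299 and 59.9 against 81.8, 345 and 288 CPM. C1qa had 7 counts in all vehicle and 7 in all LPS libraries, and Mrc1 12 and 9, which leaves these 2 macrophage markers near 0. The megakaryocyte list had a mean shift of 0.99 log2 in pair 1 and of 0.01 and -0.06 in pairs 2 and 3. The summed CPM of the dendritic cell list went from 116 to 239 in pair 3. Most of that rise was Cd74, from 44.7 to 136 CPM, and H2-Ab1, from 14.2 to 33.5 CPM. Of the 11 members that passed the filter, 8 stood higher in pair 3. The part of other cells in the results below was not tested, and in bulk RNA fewer cells of a type and less RNA per cell cannot be told apart.

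Across the 12917 genes expressed above the filter, of which 12325 have a symbol, the LPS and vehicle libraries of the Control genotype did not separate gene by gene. The edgeR quasi-likelihood test called 0 genes higher (0%) and 0 lower (0%) at a Benjamini-Hochberg adjusted p under 0.05, and the adjusted p of every gene rounded to 1. At an unadjusted p under 0.05, 52 genes were higher (0.403% of those tested) and 26 lower (0.201%), fewer than the 5% that such a threshold would pass if no gene differed. With the library number as a block shared by both genotypes, 91 (0.704%) and 67 (0.519%) passed unadjusted and again 0 were called. With the block in the 6 Control libraries alone, 478 higher and 373 lower of 12015 genes passed unadjusted, and 0 were called. For a gene taken alone, an exact permutation test of 3 against 3 libraries cannot give a two-sided p below 0.1. DESeq2 and limma-voom without the block also called 0, whereas DESeq2 with the block, fitted to the 6 Control libraries after the data had been seen, called 12 higher and 4 lower.

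The 3 pairs differed in the size of their shifts, with pair 3 the widest. By at least 1 log2 unit, 291 genes stood higher in pair 1 (2.25%), 423 in pair 2 (3.27%) and 1215 in pair 3 (9.41%). Lower by that much were 303 genes in pair 1 (2.35%), 341 in pair 2 (2.64%) and 757 in pair 3 (5.86%). The standard deviation of the shift over genes was 0.444, 0.501 and 0.893, around medians of 0.00, -0.02 and -0.05. By 2 log2 units or more, 436 genes stood higher in pair 3, against 44 in pair 1 and 33 in pair 2.

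**Figure D1:**
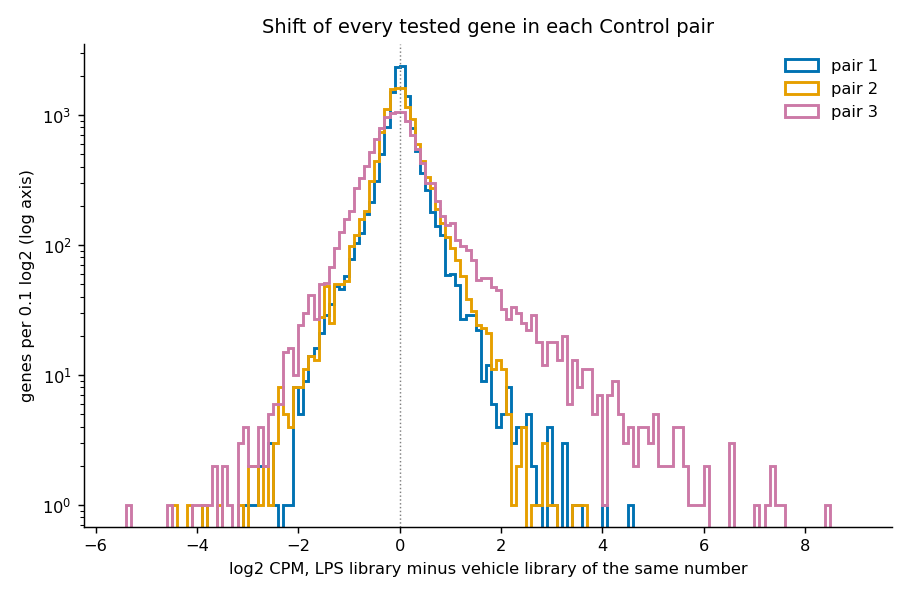
Number of genes (log axis) by shift in log2 CPM, LPS minus vehicle library of the same number, for each of the 3 Control pairs over 12917 tested genes. Pairs 1 and 2 nearly overlap, whereas pair 3 has a long right tail that holds the 436 genes higher by 2 or more.

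The 436 genes were chosen on pair 3 alone, and the other 2 pairs were then read for them. In direction, 318 of them (72.9%) stood higher in both of the other pairs, against 26.3% of all tested genes. Their median shift was 0.38 in pair 1 and 0.59 in pair 2. Of the 86 genes lower by 2 or more in pair 3, 35 (40.7%) stood lower in both other pairs, against 28.2% of all genes. Both shares of pair 3 lay above those of all genes, by more on the higher side. Genes chosen in the same way on pair 1 or pair 2 gave smaller shares on the higher side. These were 36.4% of 44 genes for pair 1 and 45.5% of 33 for pair 2. On the lower side pair 2 gave 41.5% of 41 genes. Pair 1 gave 13.6% of 22 genes there, below the 32.2% of all genes. A large shift in 1 pair thus did not always recur in direction in the others.

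Among the NF-kB inhibitors and feedback genes, 3 had LPS and vehicle libraries that did not overlap. Nfkbia, which encodes IkBα, which keeps NF-kB dimers out of the nucleus, stood at 3517, 3411 and 217 CPM with vehicle and at 4975, 4906 and 4143 CPM with LPS. All 3 LPS libraries lay above all 3 vehicle libraries, but vehicle libraries 1 and 2 were close to the LPS level and vehicle library 3 far below it. The shifts were 0.50, 0.52 and 4.25 log2, and the fitted log2 fold change was 0.97 (SE 0.88, n = 3 per group). Tnfaip3, which encodes the ubiquitin-editing enzyme A20, was at 1491, 1315 and 39.8 CPM against 2109, 1979 and 1936 CPM, a log2 fold change of 1.08 (SE 1.09). Nfkbiz, which encodes the nuclear cofactor IkBζ, was at 2159, 1725 and 76.5 CPM against 3352, 3000 and 2461 CPM, a log2 fold change of 1.15 (SE 1.11). For each of these 3 inhibitors the LPS libraries lay closer together than the vehicle libraries did. The groups overlapped for the other 12 of the 15 listed, and 2.84% of all tested genes had LPS above without overlap. Zfp36, which encodes the mRNA decay factor tristetraprolin, stood at 3113, 794 and 650 CPM with vehicle and at 3983, 887 and 812 CPM with LPS, with shifts of 0.36, 0.16 and 0.32. Both libraries numbered 1 held the most Zfp36, and its LPS libraries spread wider than its vehicle libraries.

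To show the DNA in front of such genes, the stretches around every match to the NF-kB consensus within 250 bases before the start are given from RefSeq (GRCm38.p6) for 4 genes: the inhibitor genes Nfkbia and Tnfaip3, the subunit gene Nfkb2 and the chemokine gene Cxcl10. The 4 genes were taken from named genes that held a match and stood higher in every pair. That each holds a match was thus fixed by the choice. Capitals mark the matches, found on either strand, and each run is written 5′ to 3′ on the strand of the gene and stops before the transcription start. Nfkbia lies on the minus strand at chr12:55492648-55492706, Tnfaip3 on the minus strand at chr10:19015411-19015565, Nfkb2 on the plus strand at chr19:46304668-46304736 and Cxcl10 on the minus strand at chr5:92348953-92349078.
Nfkbia: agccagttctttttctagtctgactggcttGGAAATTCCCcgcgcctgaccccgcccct
Tnfaip3: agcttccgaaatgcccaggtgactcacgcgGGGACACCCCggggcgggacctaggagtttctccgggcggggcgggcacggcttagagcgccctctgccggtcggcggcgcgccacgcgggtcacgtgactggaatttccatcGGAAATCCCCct
Nfkb2: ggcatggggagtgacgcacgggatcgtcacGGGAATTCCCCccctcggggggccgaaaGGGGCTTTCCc
Cxcl10: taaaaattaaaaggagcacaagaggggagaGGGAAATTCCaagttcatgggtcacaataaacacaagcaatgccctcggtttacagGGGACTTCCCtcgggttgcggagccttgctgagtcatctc

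Nfkbia has 1 match, Tnfaip3 and Cxcl10 have 2, and Nfkb2 has 3, of which 2 overlap in its first capital run. Of the 15 inhibitors and feedback genes, 14 have a promoter window in the table, and 6 of these 14 hold a match, against 3.75% of all 27025 windows. The AP-1 motif TGANTCA was in 2 of the 14, against 6.87% of all windows, and the interferon-response motif GAAANNGAAA in 0 of the 14, against 3.04%, both strands searched and with no overlap with the NF-kB consensus required or excluded. For the cytokines, chemokines, interferon-stimulated genes and genes shifted in all pairs, fewer than 80% have a window, so their shares are void and not compared. A match is a description of letters, not a site shown to be bound.

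Among all 15 inhibitors and feedback genes, which passed the filter without exception, 14 had a positive log2 fold change, against 46.3% of all tested genes. Their median was 1.08, beside -0.02 over all genes, and 0 were called. The median shift was 0.46, 0.52 and 3.25 in pairs 1, 2 and 3, and 13 of the 15 stood higher in all 3 pairs (16.3% of all genes did). Vehicle library 3 was the lowest vehicle library for 12 of the 15, against 32.1% of all genes. Without vehicle library 3 the median was 0.60, and without both libraries numbered 3 it was 0.39. The deubiquitinase gene Otud1 was the exception, with a negative value, and is named after its value was seen.

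The 5 NF-kB subunits, the DNA-binding proteins themselves, all had positive values, with a median of 0.86, and all 5 stood higher in all 3 pairs. Relb, a subunit of the non-canonical pathway, stood at 61.9, 342 and 30.5 CPM with vehicle and at 85.2, 485 and 560 CPM with LPS, with shifts of 0.46, 0.50 and 4.19. Nfkb2, which encodes its partner p100, was at 106, 383 and 34.7 CPM against 140, 591 and 722 CPM, a log2 fold change of 1.47 (SE 1.09). In both genes number 2 was high under either treatment, so the groups overlapped although each pair pointed up. Rela, which encodes the constitutive subunit p65, had the smallest fold change of the 5, at 0.53 (SE 0.50), with shifts of 0.28, 0.18 and 1.28. Rel, at 0.83 (SE 0.74), and Nfkb1, at 0.86 (SE 0.68), lay between. The median of the 5 was 0.58 without vehicle library 3 and 0.49 without both libraries numbered 3, but 1.40 without vehicle library 2 and 1.31 without both libraries numbered 2.

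Upstream, the receptor genes split. Cd14, which encodes the co-receptor that hands LPS to TLR4, stood at 335, 909 and 214 CPM with vehicle and at 461, 1563 and 2042 CPM with LPS. It was higher in every pair, by 0.46, 0.78 and 3.26 log2, with overlapping groups and a log2 fold change of 1.48 (SE 1.01). Tlr4 was at 14.7, 5.55 and 24.6 CPM against 13.2, 6.17 and 13.9 CPM, with shifts of -0.16, 0.15 and -0.81 that differed in sign between pairs. Of the 8 genes of the receptor complex, 5 had positive values and 3 negative, with a median of 0.36.

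Of 19 adaptors and kinases downstream of the receptor, 15 were positive, with a median of 0.21. Myd88, the central adaptor, was at 228, 297 and 81.5 CPM against 326, 436 and 521 CPM, with no overlap and a log2 fold change of 1.08 (SE 0.70). Irak3, which encodes the inhibitory kinase-like protein IRAK-M, stood at 128, 460 and 125 CPM with vehicle and at 170, 664 and 856 CPM with LPS. Its shifts were 0.41, 0.53 and 2.77. Map3k8, the kinase that couples NF-kB activation to ERK, was at 68.5, 637 and 7.66 CPM against 168, 1250 and 736 CPM, and its shift of 1.29 in pair 1 was among the 8 highest of that pair at a mean log2 CPM of at least 3. Tifa, a TRAF6-binding adaptor, did not overlap between groups, at 13.7, 21.1 and 9.69 against 28.6, 38.4 and 42.3 CPM, a log2 fold change of 1.29 (SE 0.73).

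**Figure D2:**
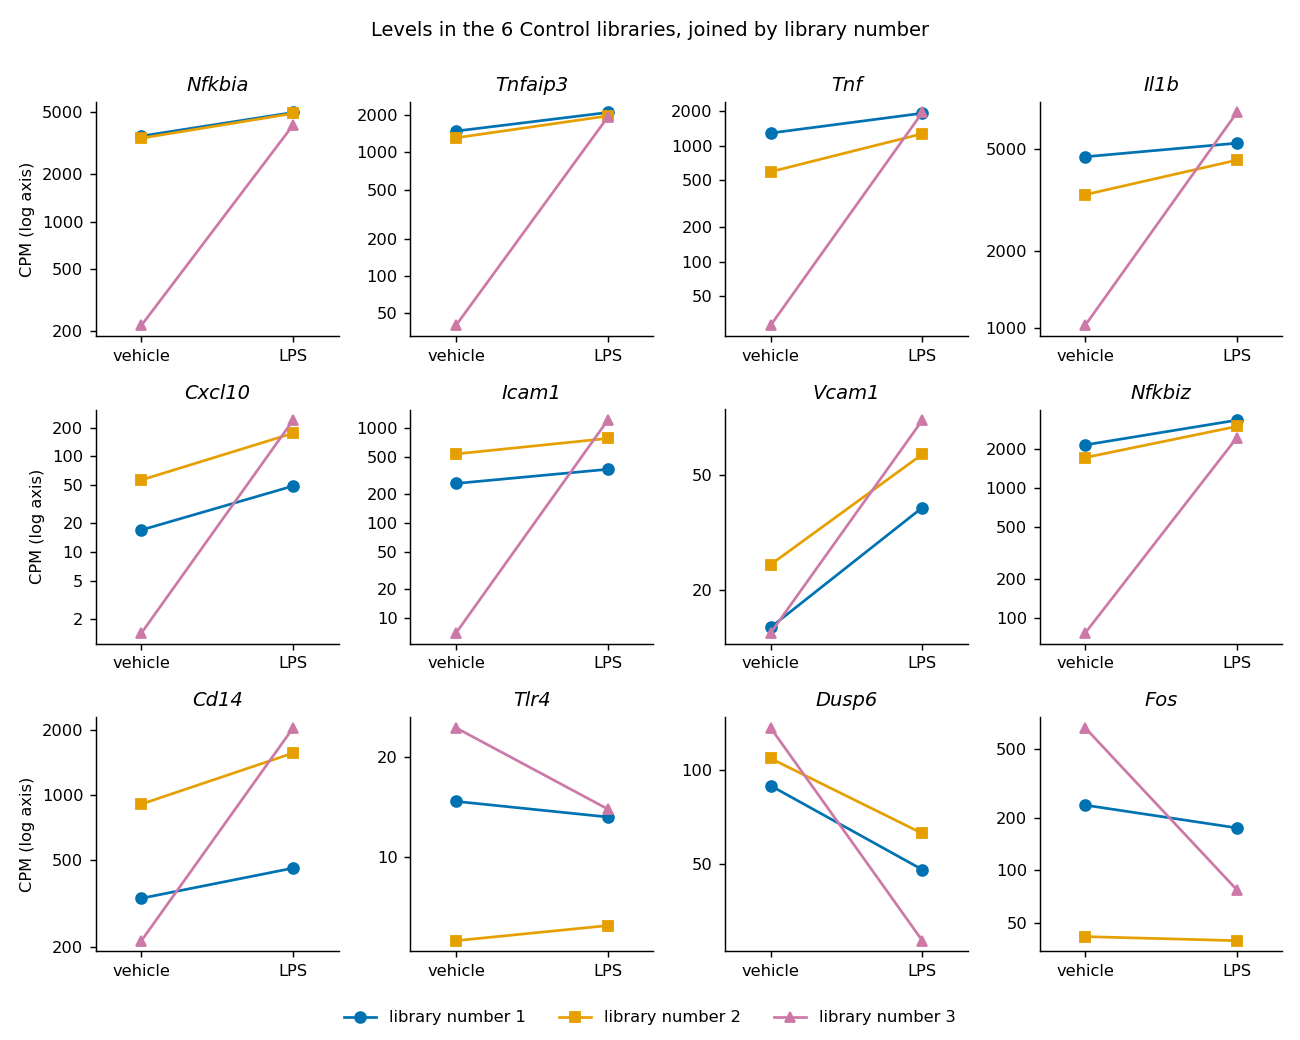
CPM on log axes of 12 genes in the 6 Control libraries, with vehicle at left, LPS at right and a line joining libraries of the same number. In Nfkbia, Tnfaip3 and Tnf, vehicle libraries 1 and 2 start near the LPS level and vehicle library 3 starts far lower, at 217, 39.8 and 28.2 CPM, whereas Vcam1 starts between 14.3 and 24.5 CPM in all 3.

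The cytokine genes followed the inhibitors. Tnf, which encodes the early inflammatory cytokine TNF, stood at 1281, 594 and 28.2 CPM with vehicle and at 1898, 1264 and 1927 CPM with LPS. Vehicle library 1 lay just above LPS library 2, so the groups overlapped, but each pair pointed up, by 0.57, 1.09 and 6.09 log2. The fitted log2 fold change was 1.42 (SE 1.22), and 0.85 without vehicle library 3. Il1b, which encodes the precursor of interleukin-1β, was at 4671, 3320 and 1023 CPM against 5279, 4532 and 6960 CPM, with shifts of 0.18, 0.45 and 2.77. Il1rn, whose product blocks the interleukin-1 receptor, had shifts of 0.30, 0.35 and 1.71.

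Other members showed larger shifts in pairs 1 and 2. Il23a, which encodes the p19 subunit of interleukin-23, was at 103, 26.7 and 0.0846 CPM with vehicle, the last from 2 counts, and at 164, 76.3 and 62.1 CPM with LPS. Il10, an anti-inflammatory cytokine, had 6, 25 and 8 counts with vehicle and 28, 40 and 140 with LPS, with no overlap and a log2 fold change of 2.64 (SE 1.28). It is named, like Csf2, after its values were seen. Csf2, which encodes GM-CSF, had 0 counts in all 3 vehicle libraries and 4, 6 and 7 counts with LPS. Set against a floor of 3 counts over the vehicle group, its level was at least 6.74-fold higher with LPS. Osm, which encodes oncostatin M, went the other way, at 1031, 112 and 533 CPM with vehicle and at 918, 99.5 and 145 CPM with LPS, with shifts of -0.17, -0.17 and -1.88.

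Of 22 listed cytokines 19 passed the filter, and 17 of these were positive, with a median log2 fold change of 1.03 and 0 called. Csf2 alone passed an unadjusted p of 0.05. With 0 counts in each vehicle library and 4, 6 and 7 with LPS, it passed the filter only through the Runx1KO libraries. Groups did not overlap for 5 of the 19, Csf2 among them, all with LPS above (2.84% of all genes), and 15 stood higher in all 3 pairs. The mean log2 level of the list was 2.14 in vehicle library 3, at least 3.82 in the other vehicle libraries, and 4.56, 4.54 and 5.18 with LPS. The median was 0.85 without vehicle library 3, 0.67 without both libraries numbered 3 and 1.56 without both numbered 1.

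Chemokine genes, which recruit further leukocytes, had a median log2 fold change of 1.54 over the 15 that passed. Cxcl5, with 0 counts in all 6 Control libraries, passed the filter only through the Runx1KO libraries, and of the 14 others 12 were positive, with a median of 1.55. Ccl7, with 9 counts summed over vehicle and 4 over LPS libraries, and Cxcl11, with 6 and 23, remain among these 14. Both were too low to pass in the Control libraries alone. With the library number as a block the median over the 15 was 1.18. Cxcl10, which attracts T cells through CXCR3, was at 17.1, 56.9 and 1.44 CPM with vehicle and at 49.2, 175 and 239 CPM with LPS. Its shift was among the 8 highest in every pair, at 1.52, 1.62 and 7.29, and its log2 fold change was 2.62 (SE 1.36). Because vehicle library 2 exceeded LPS library 1, the groups still overlapped. Ccl3, the gene of MIP-1α, was at 317, 637 and 115 CPM against 572, 1397 and 2744 CPM, with shifts of 0.85, 1.13 and 4.58. Cxcl2, a neutrophil attractant, was at 2262, 280 and 141 CPM against 2976, 699 and 1587 CPM, with a high vehicle level in library 1 only. Ccl4 showed a different order, with 68.9, 65.1 and 111 CPM in vehicle and 87.4, 148 and 486 CPM in LPS, so here vehicle library 3 was the highest of its group.

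Ccl6, a CC chemokine gene, did not follow, with shifts of 0.00, 0.05 and -0.84. The chemokine list had median shifts of 0.34, 1.13 and 3.14, and 8 of its members stood higher in all pairs. Without vehicle library 3 the list's median was 1.03, and without both libraries numbered 3 it was 0.74.

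**Figure D3:**
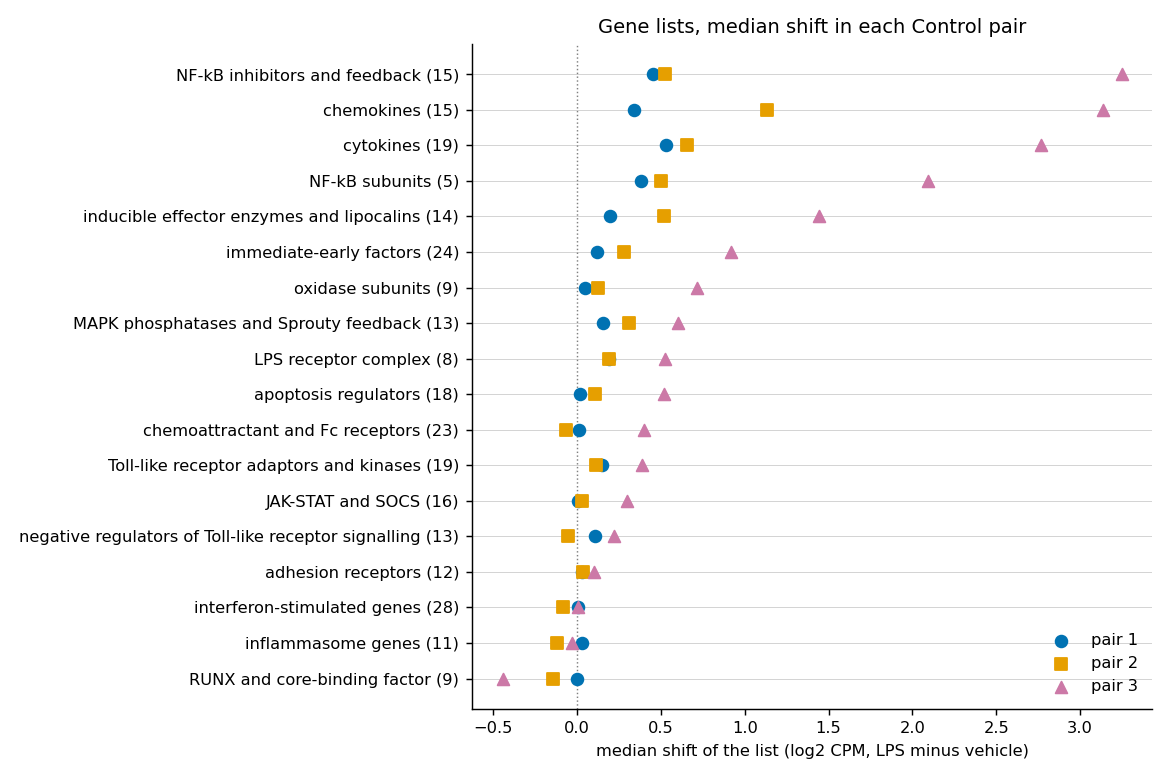
Median shift (log2 CPM, LPS minus vehicle) of 18 gene lists in each Control pair, with the number of genes that passed the filter in brackets. The NF-kB, chemokine and cytokine lists lie right of 0 in all 3 pairs, with pair 3 at 2.09 to 3.25, and the interferon-stimulated list lies at 0.01, -0.09 and 0.01.

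Immediate-early genes, transcription factors switched on by many stimuli, did not move as a block. Of 24 members, 17 were positive, with a median of 0.32, and 11 stood higher and 5 lower in all 3 pairs. Fos, a partner in AP-1, stood at 237, 41.6 and 657 CPM with vehicle and at 175, 39.5 and 77.2 CPM with LPS. It was lower in each pair, with shifts of -0.43, -0.08 and -3.09 (log2 fold change -1.68, SE 0.96), and the groups overlapped. Jun, its partner, was at 1185, 98.9 and 412 CPM against 1091, 77.8 and 100 CPM. Nr4a1, a nuclear receptor gene, was higher in each pair, at 318, 611 and 65.6 against 468, 872 and 754 CPM, and Junb likewise, at 990, 862 and 188 against 1211, 1123 and 988 CPM. Egr1 had the highest shift of pair 2 among genes at a mean log2 CPM of at least 3, at 1.63, but stood at 0.20 and -0.37 in pairs 1 and 3. Both libraries numbered 1 held the most Jun and Egr1, whichever the treatment.

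Dusp6, the gene of a phosphatase that switches off ERK, had the smallest p of all 12917 genes and was lower with LPS. It stood at 88.9, 109 and 136 CPM with vehicle and at 47.9, 62.5 and 28.3 CPM with LPS. The groups did not overlap, each pair pointed down, with shifts of -0.89, -0.80 and -2.26, and the log2 fold change was -1.27 (SE 0.30, unadjusted p = 0.00124 and adjusted p = 1 in the edgeR quasi-likelihood test). Unlike the cytokines, its vehicle libraries were tight and vehicle library 3 was the highest. Dusp16, which acts on JNK and p38, pointed the other way, at 62.7, 67.6 and 6.47 CPM against 83.7, 110 and 86.4 CPM. Dusp1, a phosphatase gene of early feedback, had shifts of 0.00, 0.31 and 0.08. Of the 13 MAPK phosphatase and Sprouty genes that passed, 9 were positive, with a median of 0.25.

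Interferon-stimulated genes were level. Of 31 listed, 28 passed, 12 were positive and 16 negative, and the median log2 fold change was -0.01. Oasl2, an antiviral gene, was at 169, 53.4 and 68.9 CPM with vehicle and at 170, 48.9 and 52.9 CPM with LPS. The list did differ by library number, its mean log2 level being 4.58 and 4.61 in the libraries numbered 1 and 3.30 to 3.56 in the 4 others. Ifnb1, the interferon gene that LPS can induce through TRIF, had 0 counts with vehicle and 1, 5 and 0 with LPS, too few to pass the filter. Within the JAK-STAT list, whose median was 0.02, the feedback gene Socs3 stood at 88.3, 86.2 and 17.6 CPM against 110, 111 and 107 CPM, with no overlap (log2 fold change 0.77, SE 0.83).

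**Figure D4:**
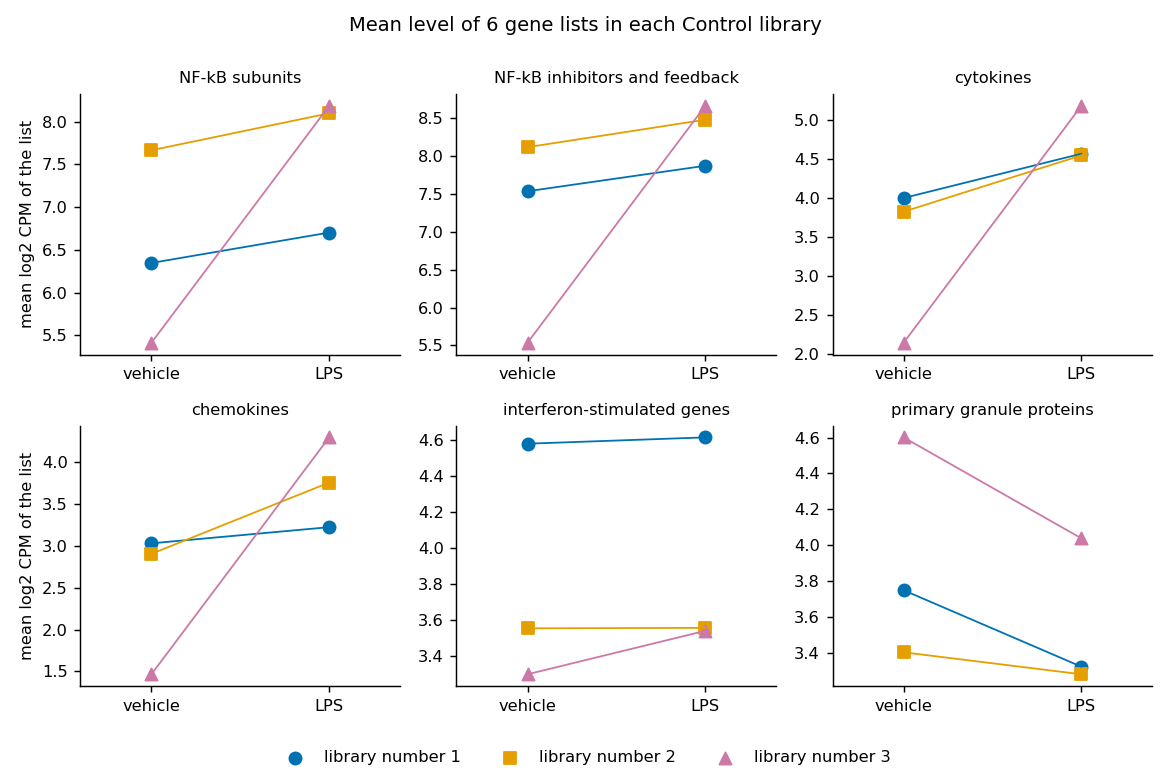
Mean log2 CPM of 6 gene lists in the 6 Control libraries, joined by library number. Vehicle library 3 is the lowest point for the NF-kB, cytokine and chemokine lists, the interferon-stimulated list is flat and separates number 1, and primary granule genes slope down in every pair.

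Among inducible effector genes, 13 of the 14 that passed were positive, with a median of 0.79, and 13 stood higher in all 3 pairs. Acod1, whose enzyme makes the antimicrobial metabolite itaconate, was at 1791, 1902 and 436 CPM with vehicle and at 2543, 3324 and 5593 CPM with LPS, without overlap. Sod2, the mitochondrial superoxide dismutase gene, was at 228, 833 and 31.7 against 457, 1513 and 1543 CPM, with shifts of 1.01, 0.86 and 5.60. Saa3, an acute-phase gene, ranked among the 8 highest shifts in every pair, at 1.29, 1.37 and 7.05. Plaur, the urokinase receptor gene, was the negative member, with shifts of 0.12, -0.35 and -0.55. Lcn2, which encodes the siderophore-binding lipocalin 2, was already at 14254, 19777 and 10708 CPM with vehicle, against 15943, 23110 and 21507 CPM.

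The 9 oxidase subunit genes, which build the enzyme of the respiratory burst, had a median of 0.30, and 6 were positive. Ncf1, the p47phox gene, was higher in each pair, at 1875, 4607 and 2320 against 2178, 6240 and 5896 CPM (log2 fold change 0.70, SE 0.59). Rac2 stood at 2509, 3232 and 1958 against 2562, 3163 and 2947 CPM. The oxidase list thus shifted little in pairs 1 and 2, by a median of 0.05 and 0.13, and by 0.71 in pair 3.

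Adhesion and receptor genes held some of the widest contrasts between pairs. Icam1, the endothelial and leukocyte ligand of β2 integrins, stood at 261, 535 and 6.94 CPM with vehicle and at 369, 780 and 1215 CPM with LPS. Its shifts were 0.50, 0.54 and 7.43, so a gene shifted by a modest amount in pairs 1 and 2 was among the 8 highest in pair 3. The integrin genes Itgam and Itgb2 stayed within 0.08 of 0 in every pair. The 12 adhesion genes had a median of 0.12.

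Of 23 chemoattractant and Fc receptors, 11 were positive and 12 negative, with a median that rounds to 0. Fpr1, the formyl peptide receptor, was at 677, 1873 and 339 CPM against 1110, 3368 and 4741 CPM (log2 fold change 1.67, SE 1.00). Ccrl2, a chemerin-binding receptor gene, did not overlap, at 987, 776 and 68.9 against 1540, 1246 and 1306 CPM. Cxcr4, the marrow retention receptor, stood at 207, 241 and 276 CPM with vehicle and at 187, 141 and 79.2 CPM with LPS, without overlap (log2 fold change -0.83, where 2.32% of all genes had LPS below without overlap), and is named after its values were seen. Clec4e, which encodes the pattern receptor Mincle, had shifts of 0.39, 0.75 and 2.34. Csf3r and C5ar1, both abundant, shifted by -0.10 to 0.67 across pairs.

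Survival and inflammasome genes were mixed. Of 18 apoptosis regulators that passed, 14 were positive, with a median of 0.22. Birc3, which encodes the inhibitor cIAP2, was at 350, 616 and 53.9 against 431, 816 and 739 CPM, and Cflar, the gene of c-FLIP, at 133, 269 and 102 against 183, 447 and 654 CPM. Mcl1, on which neutrophil survival depends, shifted by 0.22, 0.26 and 0.58. Of 11 inflammasome genes, 5 were positive, with a median of -0.08. Nlrp3, the sensor, stood at 133, 148 and 50.3 CPM with vehicle and at 171, 217 and 392 CPM with LPS, without overlap. Casp4, the mouse gene of caspase-11, did the same at 95.4, 129 and 13.5 against 134, 199 and 170 CPM, whereas Gsdmd, the pore former, had shifts of 0.01, -0.25 and -0.03.

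Genes of the RUNX family and its cofactors leaned down. All 9 that passed had negative values, with a median of -0.26, where 46.3% of all tested genes had positive ones. Only 3 stood lower in all 3 pairs (18.6% of all genes did). The median shift was -0.002, -0.14 and -0.44 in pairs 1, 2 and 3, and 4 of the 9 stood higher in pair 1. Runx1 was at 36.8, 56.2 and 38.7 CPM with vehicle and at 32.3, 50.9 and 26.1 CPM with LPS, a log2 fold change of -0.27 (SE 0.29). Runx2 was at 11.6, 11.4 and 18.9 against 11.6, 8.19 and 5.51 CPM. Of the 7 primary granule genes, which are transcribed in promyelocytes, 6 were negative, with a median of -0.47. Mpo, the myeloperoxidase gene, stood at 24.5, 28.5 and 110 CPM with vehicle and at 15.1, 21.0 and 59.4 CPM with LPS, with shifts of -0.70, -0.44 and -0.89. Its fitted log2 fold change was -0.77, and -0.71 with the library number as a block. Leaving out vehicle library 3 alone, the library with the most Mpo, turned it to 0.26, and leaving out both libraries numbered 3 gave -0.55.

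A last group was defined by all pairs together. By 0.5 log2 or more in each of the 3 pairs, 189 genes stood higher (1.46%) and 83 lower (0.643%). With RLE scaling the split was 196 and 79, and with library size alone it was 134 and 139, so the excess of higher over lower genes was absent without a composition scaling. Among genes without overlap at a mean log2 CPM of at least 3, ranked by the smallest of their 3 shifts, the first was Vcam1, an adhesion molecule that binds VLA-4, at 14.9, 24.5 and 14.3 CPM with vehicle and at 38.6, 58.9 and 77.2 CPM with LPS. Its shifts were 1.37, 1.26 and 2.43, with pair 3 again the widest, and its log2 fold change was 1.70 (SE 0.73, unadjusted p = 0.0374 by edgeR). Ss18l2, of the SS18 family, was second, with shifts of 1.14, 1.27 and 1.38, at 15.1, 7.39 and 8.88 against 33.2, 17.9 and 23.3 CPM. P2ry13, a receptor for ADP, was the third, at 26.5, 53.3 and 28.4 against 53.6, 114 and 128 CPM.

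Next in this order on the higher side were Tifa, Atp10d, Nif3l1, Ciapin1, Ccrl2, Cgas, Nfkbiz, Fam122a and Cdc42ep4. Cgas, the cytosolic DNA sensor, was at 15.4, 14.2 and 2.71 against 24.0, 28.9 and 17.2 CPM. Nif3l1 was at 7.10, 8.63 and 3.34 against 12.2, 17.5 and 25.6 CPM. On the lower side of the same order Dusp6 was lower by more than 0.5 in every pair. Smad7, Ranbp6, Rgs2, Fbxo9, Chst12, Map3k14, Dnmbp, Unk, Etnk1 and Paxbp1 came after it and were lower in each pair without overlap, but their smallest falls, -0.48 to -0.32, did not reach 0.5. Smad7, an inhibitor of TGF-β signalling, was at 47.5, 44.5 and 37.6 against 33.9, 31.8 and 18.4 CPM. Rgs2, which restrains G protein signalling, was at 308, 262 and 348 against 231, 139 and 54.7 CPM, with shifts of -0.41, -0.91 and -2.67. Map3k14, the kinase of the non-canonical NF-kB pathway, was lower in all pairs, at 14.2, 11.2 and 15.9 against 10.8, 7.44 and 6.82 CPM. The subunit genes of that pathway, Relb and Nfkb2, stood higher.

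A model of pairs 1 and 2 alone, chosen after the data had been seen, asked whether the small shifts of those pairs exceed the noise between them. With the library number as a block, edgeR called 345 of 12082 genes higher (2.86%) and 92 lower (0.761%), with median log2 fold changes of 0.50 and -0.45. Limma-voom called 314 and 80, and DESeq2 120 and 14. Leaving out pair 1 or pair 2 in place of pair 3 gave 0 calls by edgeR, and 26 higher and 7 lower, or 1 higher and 0 lower, by DESeq2. This model has 1 residual degree of freedom and borrows its spread from all genes, so its adjusted p-values may be too small. In counts simulated for this model over 12289 genes, 41 of 241 calls were of unchanged genes. The changes set in those counts were of 1 or 2 log2, larger than the median changes called here. That share therefore need not hold for the calls above.

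Pair 3 was not used in that model, but it was left out after its values had been seen. The counts below are therefore a description and not an independent check. Of the 345 genes, 335 (97.1%) stood higher in pair 3, against 45.9% of all genes, by a median of 2.11 log2, and 288 by at least 1. Of the 92, 87 (94.6%) stood lower, against 53.9% of all genes, by a median shift of -0.96. Of the members this model tested, 11 of 15 inhibitors and feedback genes, 10 of 17 cytokines, 7 of 11 chemokines and 4 of 5 subunits were called higher, against 2.86% of all genes. Of the interferon-stimulated genes 0 of 26 were called, which is near that background. In this fit Cxcl10 had a log2 fold change of 1.58 (SE 0.11), Tnf of 0.83 (SE 0.10), Nfkbia of 0.51 (SE 0.10) and Dusp6 of -0.84 (SE 0.10). Mpo was called lower in it, at -0.56 (SE 0.13). These SEs rest on the spread shared by all genes and do not measure the spread of the gene itself. The Tnf shifts of pairs 1 and 2, for example, were 0.57 and 1.09. Fos, at -0.27 (adjusted p = 0.14 by edgeR), was not called.

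**Figure D5:**
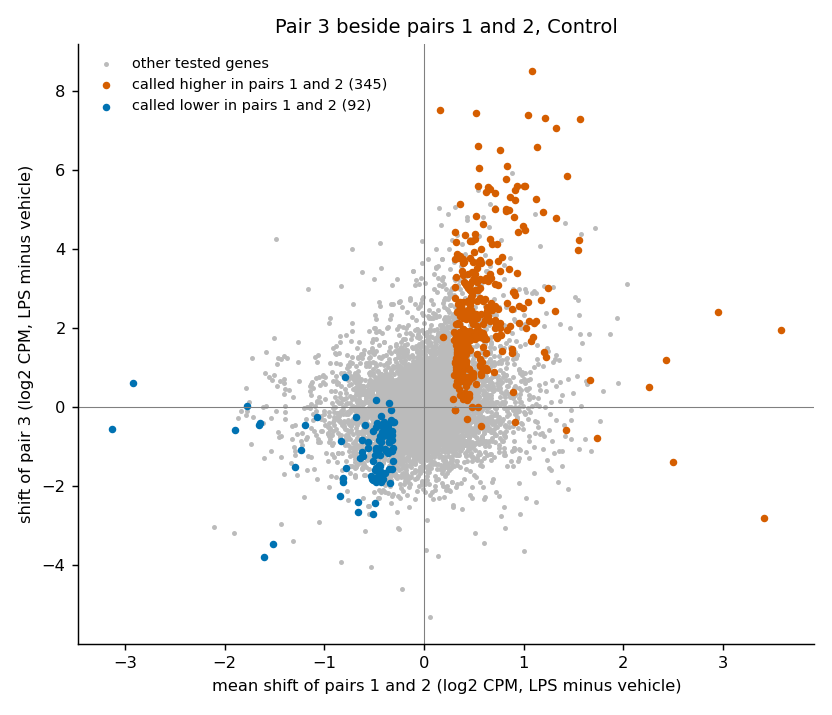
Shift of pair 3 against the mean shift of pairs 1 and 2 (log2 CPM, LPS minus vehicle) for the tested genes, with the genes called from pairs 1 and 2 in orange (345 higher) and blue (92 lower). Most orange points lie in the upper right, and their pair 3 shift exceeds that of pairs 1 and 2.

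The size of the response was also set against Runx1KO neutrophils. The interaction of genotype and treatment called 0 of 12917 genes (0%) in the edgeR quasi-likelihood test, with 77 at an unadjusted p under 0.05, and 0 by limma-voom and by DESeq2. This does not show the responses to be alike. The same order of vehicle libraries appeared there, since Tnf stood at 1419, 1184 and 73.0 CPM in Runx1KO vehicle libraries 1, 2 and 3.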

How the data were processed

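RNA of sorted neutrophils was sequenced in 12 libraries, 3 in each of 4 groups, and the 6 Control libraries are described. The authors deposited a table of raw counts per gene for 37310 genes. The submitters' processing notes name STAR 2.6.0a, featureCounts and the genome build mm9. No source used here gives the strand setting, so antisense and overlapping genes cannot be told apart, and near-identical copies are uncertain.

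From the counts, 12917 genes passed filterByExpr in edgeR 4.0.16 (R 4.3.3). Libraries were TMM-scaled and fitted with the quasi-likelihood model over all 4 groups, with Benjamini-Hochberg adjustment over all tested genes at 0.05. CPM values are TMM-scaled, and log2 CPM used a prior count of 2. SE is the absolute log2 fold change divided by the square root of F. Library numbers were taken as pairs, since every same-number correlation of deviations from the group means exceeded 0.1 (0.394 to 0.667), beside -0.511 to -0.052 for unlike numbers. The value of 0.394, for number 3, follows from the deviations of the other numbers and is not separate evidence. No 2 Control libraries were alike within sampling noise (chi-square per degree of freedom of at least 9.91). The highest value, 241, was that of pair 3. Scripts were tested on simulated data.

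Symbols were matched through Ensembl identifiers. The 36 gene lists, the pairs and the named genes were chosen with earlier results of these data known. Of the listed genes, 6 have no entry in the table. Named genes are Tnf, Il1b, Cd14, Tlr4, Nfkbia, Dusp6 and Runx1, the members of highest CPM in each list (6 in each of 18 pathway lists, 2 in each other list), and, at a mean log2 CPM of 3 or more, the 12 largest smallest pair shifts in each direction without overlap and the 8 largest shifts of each pair and direction. Predicted genes and antigen receptor segments were left out, and a few genes that the rule names are not reported here. Otud1, Il10, Csf2, Cxcr4, Ifnb1, Socs3, Cxcl5, Ccl7, Cxcl11, C1qa, Mrc1, Ly6g and Adgre1 were added after their values were seen. Promoter windows came from RefSeq (GRCm38.p6), a build other than that of the counts. Alternatives used DESeq2 1.42.0, limma-voom 3.58.1, other scalings, no filter, the Control libraries alone, the replicate block and left-out libraries.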

Additional observations from a re-analysis of the deposited data

How the results depend on the processing

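In each alternative of the model over 4 groups or over the 6 Control libraries, apart from the added ones below, 0 genes were called in either direction, and 0 for the difference between genotypes. The median log2 fold changes of the NF-kB, cytokine and chemokine lists were positive in all of them. The median over all genes was -0.02, and -0.14 with library size alone. Unadjusted counts, 52 higher and 26 lower, became 156 and 68 without the filter, 180 and 53 with only the 6 Control libraries, 82 higher with DESeq2 and 15 lower with limma-voom. The replicate block gave 91 and 67, and 478 and 373 in the Control libraries alone, and changed no other call. Leaving out libraries gave 9 to 135 higher and 9 to 54 lower.

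The following alternatives were chosen after seeing the data, all with the block. Without pair 1, 679 higher and 372 lower passed unadjusted, without pair 2, 268 and 148, and without pair 3, 778 and 539. Without pair 3, edgeR called 345 and 92, limma-voom 314 and 80, and DESeq2 120 and 14. DESeq2 called 26 and 7 without pair 1, 1 higher without pair 2, and 12 and 4 with all 3 pairs. In each case the cause was not tested.

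Genes higher or lower by 0.5 in all 3 pairs (189 and 83) became 558 and 364 at 0.25, 28 and 14 at 1, and 134 and 139 with library size alone. With a pair left out they were 342 to 635 and 222 to 428, fewer pairs being required. With single libraries or numbers left out, Tlr4 (-0.43) ranged from -0.82 to 0.13 and Mpo (-0.77) from -1.58 to 0.26, both positive only without vehicle library 3. The cause was not tested. Depth limits Csf2, Ifnb1, Il10, Ccl7 and Cxcl11, with under 10 counts in some libraries.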

Other observations

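Most gene lists for the state of the cells had medians near 0 between LPS and vehicle in Control. The median log2 fold change was 0.01 for 28 cell cycle genes, -0.07 for 18 glycolysis genes, 0.05 for 15 genes of the unfolded protein and integrated stress responses and 0.03 for 12 heat shock genes. Secondary granule genes had a median of 0.08 and mature neutrophil genes of 0.01, with 0 of either list called, whereas that of the 7 primary granule genes was -0.47. The 13 mitochondrially encoded genes had a median of 0.03, but all 13 stood higher in pair 2 and 0 of 13 in pair 3, with median shifts of 0.33 and -0.24. Erythroid markers followed the library number more than the treatment, with a summed CPM of 1226 and 1334 in the libraries numbered 1 and of 319 to 475 in the 4 others.

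Some of the widest shifts of pair 3 lay outside the pathway lists. Batf, an AP-1 family transcription factor gene, stood at 23.2, 141 and 2.79 CPM with vehicle and at 31.7, 219 and 278 CPM with LPS. Pim2, a survival kinase gene, was at 10.5, 167 and 3.76 against 16.9, 301 and 351 CPM. In both, number 1 stayed low under either treatment. On the lower side Zfp36l2, which encodes an mRNA decay factor, was at 171, 197 and 338 against 149, 114 and 63.0 CPM without overlap, and Cd300lb, an activating receptor gene, had shifts of -0.74, -0.89 and -1.79.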
